A study of Homo sapiens with 6 samples.

Results

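This account covers the enzymes that make and break down ceramide and its products in the diffuse large B-cell lymphoma cell line SU-DHL-4. The genes were chosen by name: SPTLC1, SPTLC2, CERS2, CERS5, CERS6, SGMS1, SGPP1, UGCG, ASAH1 and SMPD1, 10 in all. The deposited gene table was read for 9 of them among 29489 genes, and CERS6 was not analysed here. RNA was sequenced after poly(A) selection from 3 samples labelled KD and 3 labelled CON, and the labels name no target gene, agent, clone or time. The series is concerned with ZHX2, a zinc finger and homeobox factor, and with SLC3A2 and ferroptosis.

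Ceramide is the hub of sphingolipid metabolism. Serine palmitoyltransferase starts the pathway in the endoplasmic reticulum, and ceramide synthases join a long-chain base to a fatty acid whose length depends on the synthase. In the Golgi, ceramide is built into sphingomyelin or glucosylceramide, which then stock the plasma membrane. Sphingomyelinases release ceramide again, ceramidases cut it to sphingosine, and sphingosine 1-phosphate, the phosphorylated form, is a signal that guides lymphocytes through lymphoid tissue. Ceramide can promote apoptosis, and its conversion to other lipids lowers it.

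The values are FPKM, in which fragments are divided by transcript length and by library size, so levels of different genes can be set side by side and sequencing depth is unknown. Replicate 1 can be derived from the others in both groups: averaging replicates 2 and 3 and dividing by 1.2 (KD) or 1.1 (CON) returns them for 29489 of 29489 genes in KD and for 29488 in CON, to a relative tolerance of 1e-09, with ZHX2 the exception. All results therefore rest on replicates 2 and 3, n = 2 per group and 4 libraries in all. The labels do not say whether cultures were separate. The p-values therefore reflect only how far these libraries spread, which may be technical. ZHX2 stood at 11.0 and 11.0 FPKM in KD and at 38.5 and 36.7 FPKM in CON, but the authors' deposited table gives it a negative linear fold change, so that row was not used to check what the labels say. Of the B cell markers, MS4A1 stood at 116.6 and 123.8 FPKM in KD and 86.4 and 86.4 FPKM in CON, CD79A at 200.3 and 205.7 FPKM in KD and 372.6 and 377.4 FPKM in CON, and PAX5 at 44.5 and 43.3 FPKM in KD and 43.1 and 43.2 FPKM in CON. Myeloid markers, 5 of 8 of them listed, summed to 0.671 and 0.647 FPKM in KD and 0.119 and 0.125 FPKM in CON, T and NK cell markers (5 of 8 listed) to 3.95 and 3.72 FPKM in KD and 3.38 and 3.63 FPKM in CON, and epithelial and fibroblast markers (4 of 8 listed) to 7.68 and 7.17 FPKM in KD and 6.42 and 6.60 FPKM in CON. No listed marker of these sets was at 0 in all 4 libraries, but LYZ and CD8A were at 0 in 3 of them, and their part in the results was not tested. Transcripts of the mitochondrial genome held 29.9% and 30.3% of the FPKM sum in KD and 25.9% and 25.6% in CON.

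Promoters from RefSeq (GRCh38.p14, 250 bases before to 50 after the start) were found for 6 of the 9 genes. Shown here are those of UGCG and SGMS1, which both use ceramide and were higher in KD, and that of SMPD1, which releases ceramide and was lower in KD. The window of SGMS1 lies wholly inside the gene span given below, and which start these cells use was not tested. Capitals mark matches to any of the motifs searched.
UGCG, chr9:111896564-111896863, plus strand: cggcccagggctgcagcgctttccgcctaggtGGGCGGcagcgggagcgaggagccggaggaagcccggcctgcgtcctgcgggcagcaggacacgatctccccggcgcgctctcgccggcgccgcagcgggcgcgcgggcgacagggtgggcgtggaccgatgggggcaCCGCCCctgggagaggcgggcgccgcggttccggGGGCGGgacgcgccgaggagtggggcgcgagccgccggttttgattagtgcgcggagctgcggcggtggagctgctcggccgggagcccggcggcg
SGMS1, chr10:50623907-50624206, minus strand: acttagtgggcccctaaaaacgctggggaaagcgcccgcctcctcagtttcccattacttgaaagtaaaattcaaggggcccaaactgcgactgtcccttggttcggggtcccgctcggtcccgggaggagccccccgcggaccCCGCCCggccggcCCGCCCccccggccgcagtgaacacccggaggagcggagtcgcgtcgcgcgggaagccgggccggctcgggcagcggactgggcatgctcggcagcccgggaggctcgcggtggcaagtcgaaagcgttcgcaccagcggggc
SMPD1, chr11:6390224-6390523, plus strand: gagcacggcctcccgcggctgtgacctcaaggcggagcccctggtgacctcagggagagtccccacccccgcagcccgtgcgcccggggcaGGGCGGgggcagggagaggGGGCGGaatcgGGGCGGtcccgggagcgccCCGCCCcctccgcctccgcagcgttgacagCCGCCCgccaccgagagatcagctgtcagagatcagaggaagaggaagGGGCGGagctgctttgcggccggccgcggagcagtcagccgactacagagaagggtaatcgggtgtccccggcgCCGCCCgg
The motifs, read on both strands, were the CCAAT box (CCAAT), the GC box (GGGCGG), the E-box (CACGTG), the AP-1 site (TGANTCA), the cAMP response element (TGACGTCA) and paired heat shock elements head to head (GAANNTTC) or tail to tail (TTCNNGAA). Every match in these 3 sequences was a GC box, with 3 in UGCG, 2 in SGMS1 and 7 in SMPD1. Matches may share bases. All 6 promoters searched held a GC box, against 45.0% of 35116 RefSeq promoters. The CCAAT box was found in SPTLC2 alone (34.6% of all promoters) and the tail to tail heat shock pair in SPTLC1 alone (7.74%). The E-box (7.26%), AP-1 site (7.71%), cAMP response element (1.85%) and head to head heat shock pair (6.77%) were in none of the 6. Bases G and C made up 79.0% of the promoter of UGCG, 70.3% of SGMS1, 74.0% of SMPD1, 76.3% of CERS5, 69.3% of SPTLC2 and 57.7% of SPTLC1, against a median of 58.7% for all promoters, and the GC box is itself made of those bases.

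All 9 enzymes measured were called different between KD and CON, with n = 2 per group. Of these calls, 4 were lost in at least 1 of the alternative settings described below. Of the 9, 7 were higher in KD (UGCG, ASAH1, SGPP1, SGMS1, SPTLC1, CERS5 and SPTLC2) and 2 were lower (SMPD1 and CERS2), by limma's adjusted p of 0.05 over 11916 tested genes. The background is high: 58.6% of all tested genes passed, 27.6% higher and 31.1% lower in KD. That balance turned with the scaling, to 3548 higher and 3419 lower with median-ratio scaling and 3769 higher and 3201 lower with equal sums outside the mitochondrial genes, against 3285 and 3701 as reported. All 9 reached 1 FPKM in all 4 libraries, so none entered the test through one group alone. The groups did not overlap in 9 of 9, against 81.6% of all tested genes. The median log2 change of the 9 was 0.33, against -0.02 for all tested genes, and their median absolute change was 0.41, against 0.27. The genes were chosen with earlier results of these data known, so neither the counts nor these medians are a neutral contrast. Log2 changes are on the log2(FPKM + 1) scale, which understates the change of low genes such as SGMS1. In bulk RNA, fewer cells of a kind and less RNA per cell cannot be told apart. For each of the 9, the two-sided exact permutation p was 0.333, the smallest that 2 against 2 libraries allow.

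**Figure D1:**
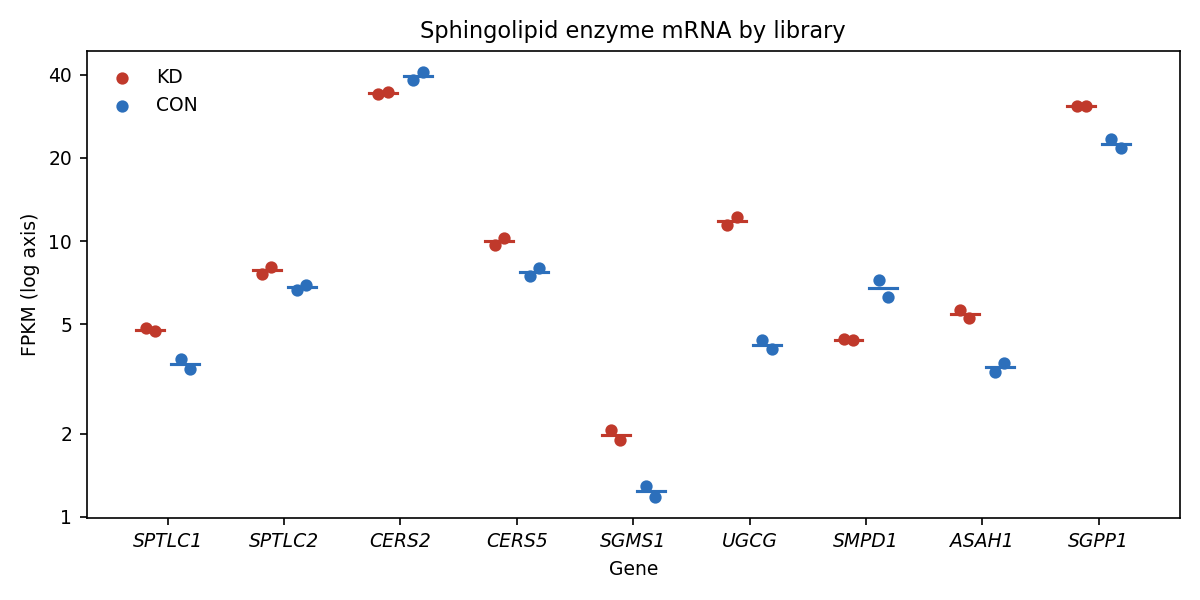
FPKM on a log axis for the 9 enzymes, with a point for each library (KD in red, left, and CON in blue, right; n = 2 each) and a line at the group mean. The groups do not overlap in any of the 9, and UGCG has the widest distance between groups on this axis.

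UGCG, glucosylceramide synthase, catalyses the first step from ceramide to the glycosphingolipids. The gene (ENSG00000148154, GRCh38 chromosome 9, 111896766 to 111935369, plus strand) stood at 11.4 and 12.2 FPKM in KD and at 4.37 and 4.05 FPKM in CON. Both KD libraries lay far above both CON libraries, with 7.05 FPKM between the nearest pair. Means were 11.8 ± 0.537 FPKM in KD and 4.21 ± 0.229 FPKM in CON (SD, n = 2), a ratio of 2.80. On the log2 scale UGCG rose by 1.30 (SE 0.0610, limma adjusted p = 2.09e-04), above the change of 98.4% of tested genes. It was the only one of the 9 with a ratio of means of at least 2, and the only one marked significant in the authors' deposited table. The authors' q-value was under 0.05 for all 9, and for 9187 of 29489 genes. The lack of a mark on the others therefore does not mean that their q-value did not pass. Among the 9 it ranked 3 by level in KD and 6 in CON.

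SGMS1, sphingomyelin synthase 1, turns ceramide into sphingomyelin in the Golgi. This gene (ENSG00000198964, chromosome 10, 50305586 to 50625163, minus strand) was the lowest of the 9, at 2.07 and 1.90 FPKM in KD and 1.30 and 1.18 FPKM in CON. The KD libraries were the higher ones, by 0.606 FPKM at the nearest pair. The ratio of means was 1.60, and the log2 change 0.41 (SE 0.0896, limma adjusted p = 0.0146). This call was lost without KD replicate 2 (adjusted p = 0.0639), CON replicate 3 (0.0831) or CON replicate 2 (0.0545), within a limma range of 0.00742 to 0.0831 over its alternatives on replicates 2 and 3. Set against each other within a library, UGCG was 5.52 and 6.40 times SGMS1 in KD and 3.37 and 3.42 times SGMS1 in CON. The log2 ratio was thus 0.81 higher in KD, with no overlap between groups (exact permutation p = 0.333, two-sided, the smallest possible).

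SMPD1 and ASAH1, which act one after the other in the lysosome, moved in opposite directions. SMPD1, acid sphingomyelinase, splits sphingomyelin into ceramide and phosphocholine, and its loss causes Niemann-Pick disease. It lies on chromosome 11 from 6390431 to 6394998 on the plus strand (ENSG00000166311). SMPD1 stood at 4.41 and 4.38 FPKM in KD and at 7.23 and 6.26 FPKM in CON. Both CON libraries were above both KD libraries, and the CON libraries spread more (SD 0.687 FPKM) than the KD ones (SD 0.0237 FPKM). The ratio of KD to CON was 0.651, and SMPD1 fell by 0.52 on the log2 scale (SE 0.0773, limma adjusted p = 0.00451).

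ASAH1, acid ceramidase, cuts ceramide into sphingosine and a fatty acid, and its loss causes Farber disease. The gene (ENSG00000104763) is on chromosome 8 from 18055992 to 18084998, minus strand. ASAH1 stood at 5.62 and 5.24 FPKM in KD and at 3.36 and 3.61 FPKM in CON. The KD libraries were higher, with 1.64 FPKM between the nearest pair. The ratio of means was 1.56, and the log2 change 0.52 (SE 0.0665, limma adjusted p = 0.00287). Within a library, SMPD1 was 2.13 and 2.30 times SGMS1 in KD and 5.57 and 5.29 times SGMS1 in CON. This log2 ratio of an enzyme that breaks sphingomyelin to an enzyme that makes it averaged 1.15 in KD and 2.44 in CON. The difference of -1.29 was the largest shift of the 4 ratios formed (exact permutation p = 0.333, two-sided, the smallest possible). This ratio covers SMPD1 and SGMS1 alone, and the balance of breakdown and synthesis was not tested. SMPD4, a further sphingomyelin gene, stood above SMPD1 in every library and did not pass (log2 change -0.10, limma adjusted p = 0.172).

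**Figure D2:**
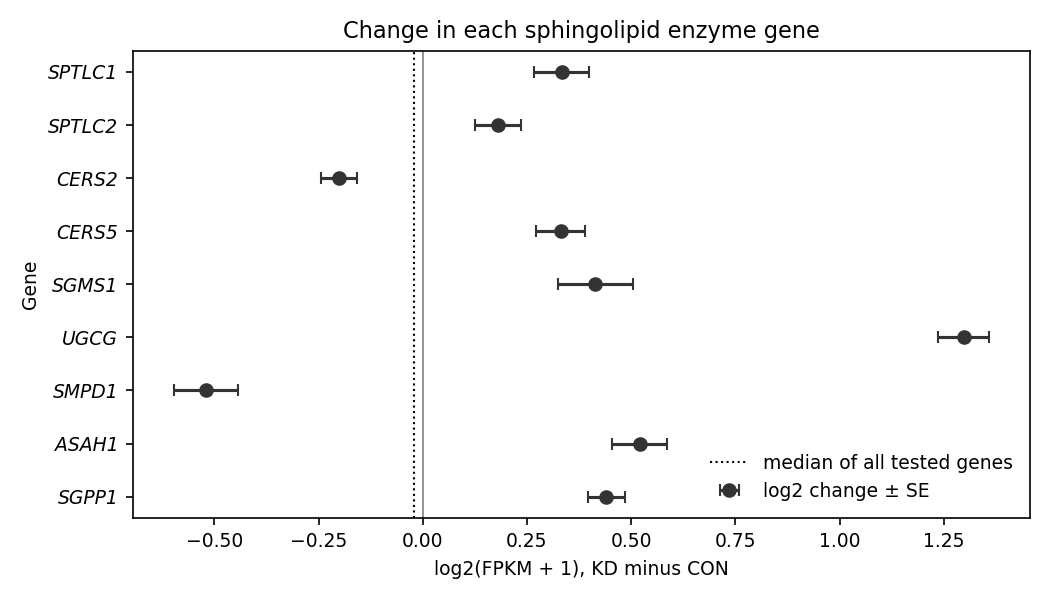
Log2 change of each enzyme gene, KD minus CON, on the log2(FPKM + 1) scale, with bars for the limma SE (n = 2 per group) and a dotted line at the median of all tested genes, -0.02. UGCG stands apart at 1.30, and SMPD1 at -0.52 and CERS2 at -0.20 lie on the other side of 0.

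The subunits of serine palmitoyltransferase, the rate-limiting enzyme of the pathway, were both higher in KD by small amounts. SPTLC1 pairs with the catalytic SPTLC2 in this complex. SPTLC1 (ENSG00000090054, chromosome 9, 92000087 to 92115384, minus strand) stood at 4.83 and 4.72 FPKM in KD and at 3.75 and 3.43 FPKM in CON. The groups were 0.973 FPKM apart at their nearest libraries, wider than the spread within either. Its ratio of means was 1.33 and its log2 change 0.33 (SE 0.0658, limma adjusted p = 0.0110). The call was lost without CON replicate 3 (adjusted p = 0.0590), the highest of its alternatives, which began at 0.00745.

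SPTLC2 (ENSG00000100596, chromosome 14, 77505997 to 77616773, minus strand) stood at 7.61 and 8.07 FPKM in KD and at 6.66 and 6.94 FPKM in CON. KD was higher here too, but by only 0.671 FPKM at the nearest libraries. With a ratio of 1.15 and a log2 change of 0.18 (SE 0.0545, limma adjusted p = 0.0396), it had the smallest change of the 9. This call was lost in 7 of 14 alternatives, with limma adjusted p between 0.0193 and 0.174. Among these were each of the 4 settings without a library: KD replicate 2 (0.0517), KD replicate 3 (0.133), CON replicate 2 (0.174) and CON replicate 3 (0.0924). It was also lost with a replicate block (0.0506). SPTLC2 was 1.57 and 1.71 times SPTLC1 in KD and 1.78 and 2.03 times SPTLC1 in CON, a log2 ratio that averaged 0.71 in KD and 0.92 in CON. The difference of -0.21 (exact permutation p = 0.333, two-sided, the smallest possible) was -0.11 without CON replicate 3 and -0.30 without CON replicate 2.

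The ceramide synthases measured went in different directions. CERS2 makes very long chain ceramides and was the most abundant of the 9 enzymes in both groups. It (ENSG00000143418, chromosome 1, 150960583 to 150975004, minus strand) stood at 34.0 and 34.7 FPKM in KD and at 38.3 and 41.0 FPKM in CON. CON was the higher group, by 3.63 FPKM at the nearest libraries. The ratio of KD to CON was 0.866, and CERS2 fell by 0.20 on the log2 scale (SE 0.0423, limma adjusted p = 0.0135). The call was lost without KD replicate 2 (adjusted p = 0.0518) or CON replicate 3 (0.0523), with a range of 0.00904 to 0.0573 over the limma alternatives. CERS2 overlaps SETDB1 on the opposite strand, and no source used here states whether counting used strand, so its level is uncertain.

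CERS5, which makes ceramides with palmitoyl chains, was higher in KD. This gene (ENSG00000139624, chromosome 12, 50129306 to 50167533, minus strand) stood at 9.69 and 10.3 FPKM in KD and at 7.45 and 8.01 FPKM in CON. The nearest libraries of the groups were 1.68 FPKM apart. Its ratio of means was 1.29 and its log2 change 0.33 (SE 0.0578, limma adjusted p = 0.00755). In the authors' deposited table its row carries 2 NCBI gene identifiers, one of them that of CERS6, for which RefSeq lists CERS5 as an older name.

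Within the summed FPKM of CERS1 to CERS5, which came to 62.7 and 61.6 in KD and 64.0 and 67.7 in CON, the shares shifted between synthases. CERS2 took 54.3% and 56.3% in KD and 59.8% and 60.5% in CON, with means of 55.3% ± 1.42 and 60.2% ± 0.515 (SD, n = 2). CERS5 took 15.4% and 16.7% in KD and 11.6% and 11.8% in CON. The CERS2 share was thus different by -4.92 percentage points and the CERS5 share by 4.32, with no overlap between groups (exact permutation p = 0.333 for each, two-sided, the smallest possible). CERS4, the other abundant synthase, overlapped between groups at 30.0% and 27.0% in KD and 28.5% and 27.5% in CON. CERS1 and CERS3 each took at most 0.243% in any library, and CERS6 is outside this sum.

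**Figure D3:**
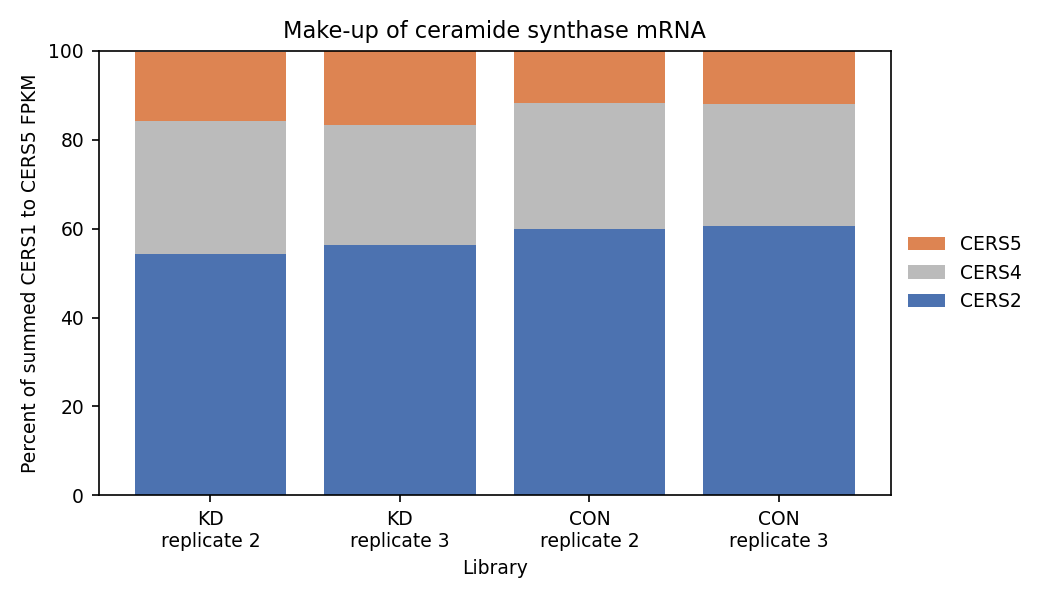
Share of the summed FPKM of CERS1 to CERS5 taken by CERS2, CERS4 and CERS5 in each of the 4 libraries, in percent; CERS1 and CERS3, at most 0.243% each, are not drawn. The CERS5 part is 15.4% and 16.7% in the KD libraries, against 11.6% and 11.8% in the CON libraries.

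SGPP1 removes the phosphate from sphingosine 1-phosphate in the endoplasmic reticulum and so returns sphingosine for reuse. It was the next most abundant enzyme after CERS2 in both groups. The gene (ENSG00000126821, chromosome 14, 63684214 to 63728039, minus strand) stood at 30.9 and 30.9 FPKM in KD and at 23.3 and 21.7 FPKM in CON. The KD libraries nearly coincided, and the nearest CON library was 7.55 FPKM below them. The ratio of means was 1.37, and the log2 change 0.44 (SE 0.0441, limma adjusted p = 0.00144). SGPP1 was 5.50 and 5.90 times ASAH1, which also yields sphingosine, in KD and 6.94 and 6.03 times ASAH1 in CON. Their log2 ratio differed by -0.18 (exact permutation p = 0.333, two-sided, the smallest possible), with both CON libraries above both KD libraries. The difference rested on single libraries, at -0.08 without CON replicate 2 and -0.29 without CON replicate 3.

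By level per length, the order in KD was CERS2, SGPP1, UGCG, CERS5, SPTLC2, ASAH1, SPTLC1, SMPD1 and SGMS1. In CON it was CERS2, SGPP1, CERS5, SPTLC2, SMPD1, UGCG, SPTLC1, ASAH1 and SGMS1. In CON the neighbours SPTLC2 and SMPD1 overlapped between libraries, as did SPTLC1 and ASAH1, so their order there is not fixed. In KD no neighbours in the order overlapped. SMPD1 ranked 8 in KD and 5 in CON, and ASAH1 ranked 6 in KD and 8 in CON. Direction was the same as reported in 123 of 123 refits of these genes under the alternatives. With groups that do not overlap, a change of pseudocount, filter, variance model or library set cannot turn a direction. Only the rescalings could have done so, and the count is therefore no sign of stability. The calls of UGCG, ASAH1, SGPP1, SMPD1 and CERS5 held in each alternative in which they were tested, and those of SPTLC1, SPTLC2, CERS2 and SGMS1 did not. Without CON replicate 3, 4 genes rose in place of 7, and 1 fell in place of 2. Without KD replicate 2, 1 fell as well.

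**Figure D4:**
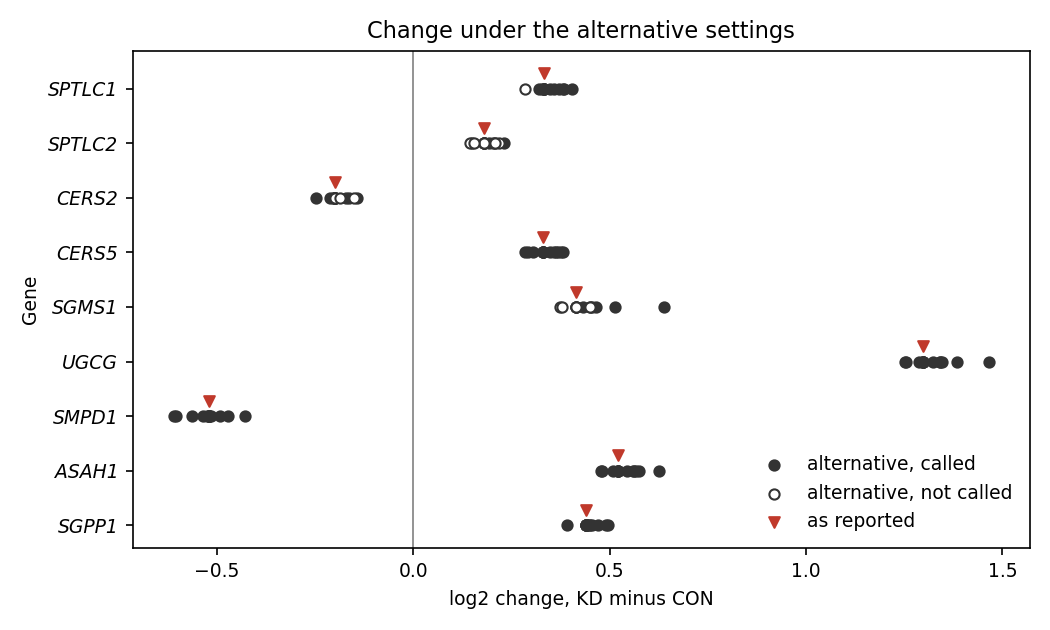
Log2 change of each enzyme gene, KD minus CON, as reported (triangle) and under each of up to 14 alternative settings on replicates 2 and 3 (circles, filled where limma's adjusted p passed 0.05 and open where it did not). No circle lies on the other side of 0 from its triangle, which groups that do not overlap fix in advance for all settings but the rescalings. SPTLC2 has the most open circles.

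The rest of the pathway moved in both directions. Of 62 further sphingolipid genes in 6 lists, 53 had a row and 38 were tested, of which 11 rose and 11 fell, a share of 57.9% called against 58.6% of all tested genes. Their split moved to 13 higher and 8 lower with equal sums outside the mitochondrial genes and to 12 and 9 with median-ratio scaling. Their median log2 change was -0.05. The counts per list below cover 4 to 11 tested genes each. Beside them, 27.6% of all tested genes were higher and 31.1% lower in KD. Of the 38, 3 reached 1 FPKM in KD only (ACER2, SPHK1 and ST8SIA1), and without them 9 rose and 11 fell of 35. All 9 enzymes described above carry the KEGG label for sphingolipid metabolism in the authors' deposited table. Among the other 26 tested genes with that label, a grouping added after the data were seen, 8 rose and 5 fell.

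In de novo synthesis, 3 of 8 tested genes rose and 2 fell. KDSR, which reduces the product of serine palmitoyltransferase, stood at 5.02 and 5.26 FPKM in KD and 3.37 and 3.41 FPKM in CON (log2 change 0.48, limma adjusted p = 0.00252). SPTSSA, a small subunit that activates serine palmitoyltransferase, also rose (0.33, limma adjusted p = 0.0122), a call lost with no filter on low values (0.0633). The ORMDL proteins, which hold serine palmitoyltransferase back when ceramide is plentiful, split. ORMDL1 fell by 0.31 and ORMDL2 by 0.42, whereas ORMDL3 rose by 0.25 (limma adjusted p = 0.00703, 0.00252 and 0.0109). ORMDL3 stood at 21.5 and 22.5 FPKM in KD and at 17.7 and 19.0 FPKM in CON, so the most abundant of these regulators was the one that was higher. ORMDL1 and ORMDL2 each overlap an expressed gene on the opposite strand (PMS1 and DNAJC14), so their levels are uncertain. DEGS1, the desaturase that finishes ceramide, had a log2 change of 0.07 that did not pass (limma adjusted p = 0.122).

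Among sphingomyelin genes 1 of 4 tested rose and 1 fell. SAMD8, which makes the related lipid ceramide phosphoethanolamine in the endoplasmic reticulum, stood at 6.99 and 7.16 FPKM in KD and at 3.77 and 3.84 FPKM in CON. Both KD libraries were well above both CON libraries, with a ratio of 1.86 and a log2 change of 0.75 (limma adjusted p = 5.56e-04). SMPD2, a neutral sphingomyelinase, fell by 0.26 (adjusted p = 0.0340 by limma), a call lost in 6 of 14 alternatives, among them those without KD replicate 2 (0.114), KD replicate 3 (0.0652) or CON replicate 2 (0.158) and with a replicate block (0.0554). CERT1, which carries ceramide to the Golgi for sphingomyelin synthesis, had a log2 change of 0.05 (limma adjusted p = 0.570).

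Ceramide kinase was lower in KD. CERK, which phosphorylates ceramide, stood at 22.0 and 22.6 FPKM in KD and at 35.7 and 34.4 FPKM in CON, a log2 change of -0.63 (limma adjusted p = 3.51e-04). CPTP, which moves the ceramide 1-phosphate that CERK makes, was at 8.40 and 7.37 FPKM in KD and 11.3 and 11.7 FPKM in CON, a change of -0.49 (limma adjusted p = 0.00392). GLTP, a glycolipid transfer protein, fell by 0.14, a call lost in 10 of 14 alternatives, each of the 4 without a library among them (limma adjusted p of 0.0520 to 0.181). Of the 5 tested genes in this list, 3 fell and 1 rose. The one that rose was ACER2, a Golgi ceramidase at 1.09 and 1.18 FPKM in KD and 0.374 and 0.328 FPKM in CON (log2 change 0.66). ACER2 had passed the filter through KD alone, and its log2 change was 1.46 with a pseudocount of 0.1.

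Of 5 tested genes of sphingosine 1-phosphate, 1 rose and 1 fell. SPHK1, a kinase that makes it, was at 1.69 and 1.58 FPKM in KD and 0.887 and 0.969 FPKM in CON (log2 change 0.45, limma adjusted p = 0.0132). It overlaps PRPSAP1 on the opposite strand, so its level is uncertain. It had passed the filter through KD alone, and the call was lost without CON replicate 3 (0.0561) or CON replicate 2 (0.0769). S1PR2, the receptor that confines germinal centre B cells and restrains their growth, was at 23.3 and 22.7 FPKM in KD and 29.0 and 30.6 FPKM in CON, a change of -0.36 (limma adjusted p = 0.00197). S1PR2 overlaps DNMT1 on the same strand, which leaves its level uncertain. SGPL1, the lyase that destroys sphingosine 1-phosphate, had a change of -0.07 (limma adjusted p = 0.410). SGPP2, a relative of SGPP1, was not tested, at 0.597 and 0.783 FPKM in KD and 0.112 and 0.120 FPKM in CON.

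Downstream of UGCG, 3 of 5 tested genes of glycosphingolipid synthesis rose and 1 fell. B4GALT5 and B4GALT6 add galactose to glucosylceramide to make lactosylceramide. Their log2 changes were 0.14 and 0.28, far below the 1.30 of UGCG, with calls lost in 8 of 14 and 3 of 13 alternatives. B4GALT6 overlaps AC017100.1 on the opposite strand, which leaves its level uncertain. A4GALT, which makes globotriaosylceramide, the CD77 antigen of germinal centre B cells, stood at 3.07 and 2.74 FPKM in KD and at 1.73 and 1.99 FPKM in CON. It rose by 0.45 (limma adjusted p = 0.0119), a call lost without KD replicate 2 (0.0517) or CON replicate 2 (0.0602). For B4GALT5 the call was lost without KD replicate 3 (0.161), CON replicate 2 (0.176) or CON replicate 3 (0.132), and for B4GALT6 without KD replicate 3 (0.0819) or CON replicate 3 (0.104), all by limma. B3GALT4, of ganglioside synthesis, fell by 0.45 (0.0109), lost without CON replicate 3 (0.0809), and it overlaps WDR46 on the opposite strand.

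Of 11 tested genes that break glycosphingolipids down, 2 rose and 3 fell. GLA, the alpha-galactosidase that removes the last sugar of globotriaosylceramide, was at 13.0 and 12.9 FPKM in KD and at 3.42 and 3.99 FPKM in CON (log2 change 1.57, limma adjusted p = 2.08e-04). NEU1, a lysosomal sialidase, was at 27.6 and 27.0 FPKM in KD and at 6.72 and 6.68 FPKM in CON (1.88, limma adjusted p = 2.39e-05). Both changes were above that of UGCG. In the authors' deposited table the rows of GLA and NEU1 each carry 2 NCBI gene identifiers, and what this means for their levels was not tested. GLA lies within the readthrough gene RPL36A-HNRNPH2 on the opposite strand, which stood at 0.418 and 0 FPKM in KD and at 16.9 and 17.0 FPKM in CON, and without a stated strand setting the GLA level is uncertain. GM2A, a cofactor of ganglioside breakdown that overlaps CCDC69 on the opposite strand, fell by 0.21 (limma adjusted p = 0.00982). This call was lost with no filter on low values (0.0529). GBA2, which acts on glucosylceramide outside the lysosome, fell by 0.13 (limma adjusted p = 0.0462). GBA2 overlaps CREB3 on the opposite strand, so its level is uncertain, and its call was lost in 9 of 14 alternatives, each of the 4 without a library among them (limma adjusted p of 0.0695 to 0.214). PSAP, the precursor of the saposins that help lysosomal hydrolases, had a change of -0.07 (limma adjusted p = 0.232).

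**Figure D5:**
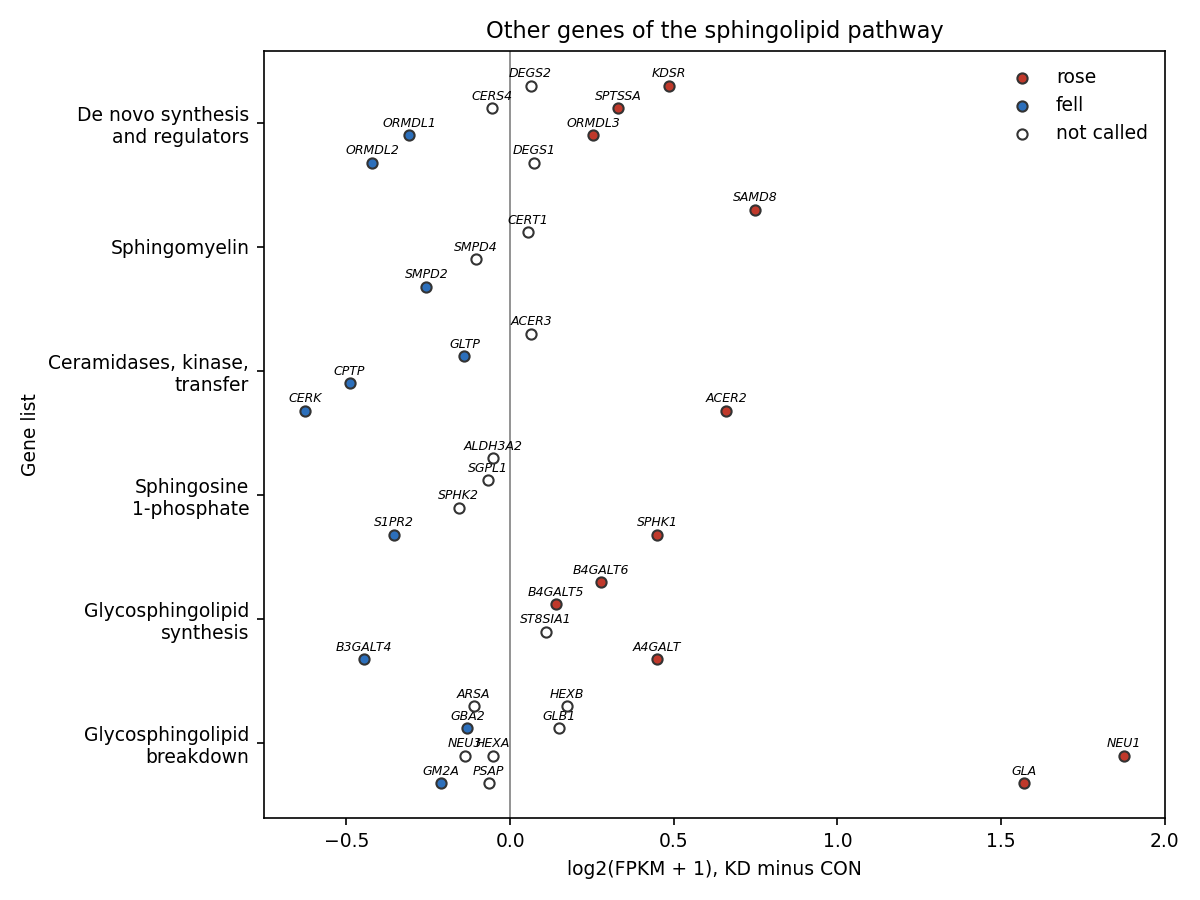
Log2 change, KD minus CON, of 37 other tested sphingolipid genes in 6 lists, coloured by whether limma's adjusted p passed 0.05 with the gene higher (red) or lower (blue) in KD, or did not pass (white); n = 2 per group, and the vertical position within a list has no meaning. NEU1 at 1.88 and GLA at 1.57 lie farthest right, and CERK at -0.63 farthest left.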

How the data were processed

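Poly(A) RNA-seq of SU-DHL-4 gave 6 samples, 3 labelled KD and 3 labelled CON. GRCh38, HISAT2, StringTie, fastp and edgeR appear, with no roles, in the submitters' processing notes; no source used here states the strand setting. The authors deposited FPKM per gene, and, per the file headers, a linear fold change, its log2, and a p-value and q-value per gene. The authors' fold changes were used only to check the ratios of means, which equalled them in 9 of 9 genes within 1e-06, and to name significance marks.

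Replicate 1 of each group was left out because its values follow from the other 2. The test took the 11916 of 29489 genes that reached 1 FPKM in 2 or more of the 4 libraries. The model was limma 3.58.1 under R 4.3.3 on log2(FPKM + 1), group alone, trended variance. Its two-sided p-values were adjusted by Benjamini-Hochberg over those genes and called at 0.05. Residual degrees of freedom were 2 and prior ones 2.85. Single values were compared with an exact permutation test (scipy 1.17.1). Coordinates are from GENCODE 29. Depth is unknown, so no counting interval was given.

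The genes and lists were chosen with earlier results of these data known. Named genes were the 9 measured enzymes, ZHX2 and, per list, the 4 called genes with the smallest adjusted p, or all where 5 or fewer were called; genes named to show that they did not pass or were not tested, overlapping genes and cell markers stand outside that rule and were chosen after their values were seen. One listed pathway gene and one cell marker are counted in their lists and not reported here. CERS6 over CERS5 was planned as a ratio and not computed.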

Additional observations from a re-analysis of the deposited data

How the results depend on the processing

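The calls were recomputed under 15 alternatives. In the alternatives on all 4 libraries, the count over all genes that rose ranged from 2292 to 3769 and the count that fell from 2493 to 3714. With all 6 columns, 3762 fell. Of the 9 enzymes, 4 rose with a mean of at least 5 FPKM, a setting that kept 6 of them, and 4 to 6 without 1 library. As few as 1 fell with no filter on low values, 1 with all 6 columns, and 1 to 2 without 1 library. Of the other pathway genes, 6 rose with a mean of at least 5 FPKM, where fewer genes are tested, 7 with all 6 columns, and 7 to 9 without 1 library; 6 fell with no filter, and 8 to 9 without 1 library. The cause of the other losses was not tested. The settings with all 6 columns use the replicate 1 values that hold no measurement, so their p-values carry no weight and counts of lost calls leave them out.

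The replicate block lost the call of SPTLC2 (limma adjusted p = 0.0506) among the 9 enzymes, and those of SMPD2 (0.0554), GLTP (0.0788), GBA2 (0.0789) and B4GALT5 (0.0608). With no filter on low values, the calls of SPTLC2 (0.0897), CERS2 (0.0573) and SGMS1 (0.0696) were lost among the 9 enzymes. That setting also lost SPTSSA, GM2A, SPHK1 (0.0675), A4GALT (0.0590), B3GALT4 (0.0570), B4GALT5, B4GALT6, SMPD2, GLTP and GBA2. Deviations of same-numbered libraries correlated at 0.0047 across genes. This value cannot show a shift of equal size in all genes, nor tell whether same-numbered libraries were prepared together. Without 1 library, the difference in CERS2 share ranged from -5.92 to -3.92 percentage points, and that in the log2 ratio of SGPP1 over ASAH1 from -0.29 to -0.08. With 2 libraries a group, such a shift cannot exceed their spread, and all 6 columns can hardly change a share or ratio, so neither is a sign of stability. Only 2 libraries per group limit every call, and genes near 1 FPKM, such as SGMS1 at 1.18 FPKM in a CON library, depend most on the pseudocount: its log2 change was 0.64 with a pseudocount of 0.1.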
